A study of Mus musculus with 6 samples.

Results

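Imprinted genes keep a mark of the parent they came from: a methylation mark laid down in the germ line at an imprinting control region makes one copy of the gene active and leaves the other silent. They lie mostly in clusters, in which paternally expressed genes, maternally expressed genes and non-coding RNAs share a control region. Many of them act in growth, placenta and brain, and several, such as those of the Prader-Willi and Angelman region, cause neurodevelopmental disorders in humans when the active copy is lost.

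The imprinted genes described here were 38 genes of 18 mouse loci, found as the rows of the deposited expression table whose symbol equalled a listed name, of 43383 rows in all. Of these, 23 are known for paternal expression, 13 for maternal expression and 2, Gnas and Grb10, for expression that depends on transcript or tissue. Ube3a is counted as maternal although its paternal copy is known to be silenced in neurons. Reads were not assigned to alleles, so the values give the summed output of both copies of each gene and say nothing of the imprint itself.

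The libraries came from Aldh1l1-eGFP mice, in which the regulatory sequence of Aldh1l1, an enzyme of folate metabolism found in astrocytes, drives GFP. GFP-positive cells were sorted from the dissected somatosensory cortex of male mice aged 4 weeks; the labels name no treatment. Upper-layer astrocytes (ULAs) came from layers II–IV and deep-layer astrocytes (DLAs) from layers V and VI, with 3 libraries per layer, 1 from each of 3 brains. Each group thus pools several layers. The 2 groups do not cover the whole cortex: the dissection left out its surface with layer I and the white matter below, and discarded tissue around the IV/V border. Expression is given as RPKM, reads per kilobase of mRNA scaled to the depth of the library, which allows levels to be compared between genes as far as the mRNA length of a row, which can join several transcripts, fits the transcript made. Library depth was 24.4 to 26.7 M reads in ULAs and 19.7 to 29.6 M in DLAs. In sorted bulk samples, fewer cells of a type and less RNA per cell cannot be told apart. The sorted cells carried the markers of astrocytes at a summed RPKM of 13215 to 14169 in ULAs and 12559 to 13693 in DLAs.

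Imprinted genes ranged from well expressed to silent in these astrocytes. Averaged over the 6 libraries, 11 of the 38 genes reached an RPKM of 10, 7 lay between 1 and 10, 15 had reads but averaged under 1, and 5 were listed at 0 in every library. The 11 highest carried 89.9% of the summed level of the 38. Sgce, which encodes the membrane protein epsilon-sarcoglycan, had the highest row value, a mean RPKM of 44.8, above 87.0% of the 13999 rows that averaged 1 or more. The plot of levels by library shows that expressed members spanned more than an order of magnitude, down to Zrsr1 at a mean RPKM of 1.37.

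**Figure D1:**
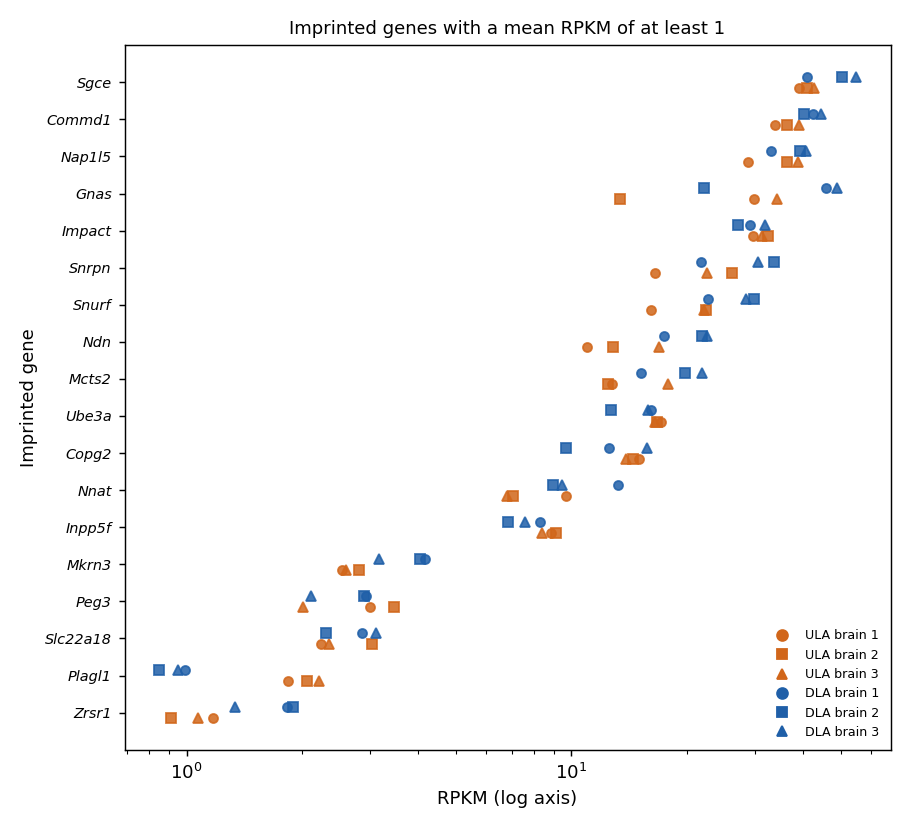
RPKM on a log axis of the 18 imprinted genes with a mean of at least 1, in each of the 3 ULA libraries (orange) and 3 DLA libraries (blue); the marker shape gives the brain. Ndn, Snurf, Commd1, Mkrn3 and Zrsr1 lay higher in every DLA library than in any ULA library, and Plagl1, Ube3a and Inpp5f lay lower.

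The layers were compared by limma on log2(RPKM + 1), with brain and layer as terms, over all rows that averaged an RPKM of 1 or more, with an adjusted p under 0.05 as the threshold (2-sided, Benjamini-Hochberg over 13999 rows). Log2 fold changes are ULA minus DLA, so a negative value means a higher level in DLAs. The 18 imprinted genes that entered the test came from 13 loci. Gnas and Ndn rose in DLAs, and no member rose in ULAs, against a background of 1.63% of all rows called in either direction (0.914% higher in DLAs, 0.714% higher in ULAs). An unadjusted p under 0.05 was found for 10 of the 18, against 16.4% of all rows.

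Most of the members tested had lower values in ULAs, whether or not they passed. The median log2 fold change of the 18 was −0.23, beside −0.03 for all rows tested, and 12 of the 18 lay below 0, as did 55.0% of all rows. In 11 of the 18 the DLA library exceeded the ULA library in 3 of 3 brains, a pattern seen in 23.2% of all rows. It was more frequent among well-expressed rows: with a mean RPKM of 10 or more, 32.0% of all rows and 8 of 11 members had it, and the medians were −0.07 and −0.24. In 3 of the 18 the ULA library was higher in 3 of 3 brains, against 15.2% of all rows. The layers did not overlap for 8 of the 18, 5 of them higher in DLAs and 3 higher in ULAs, against 9.27% and 6.59% of all rows. Members of a locus can share a control region or, as set out below for Snrpn with Snurf, reads, and Zrsr1 lies within Commd1. These counts are therefore not counts of independent events.

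**Figure D2:**
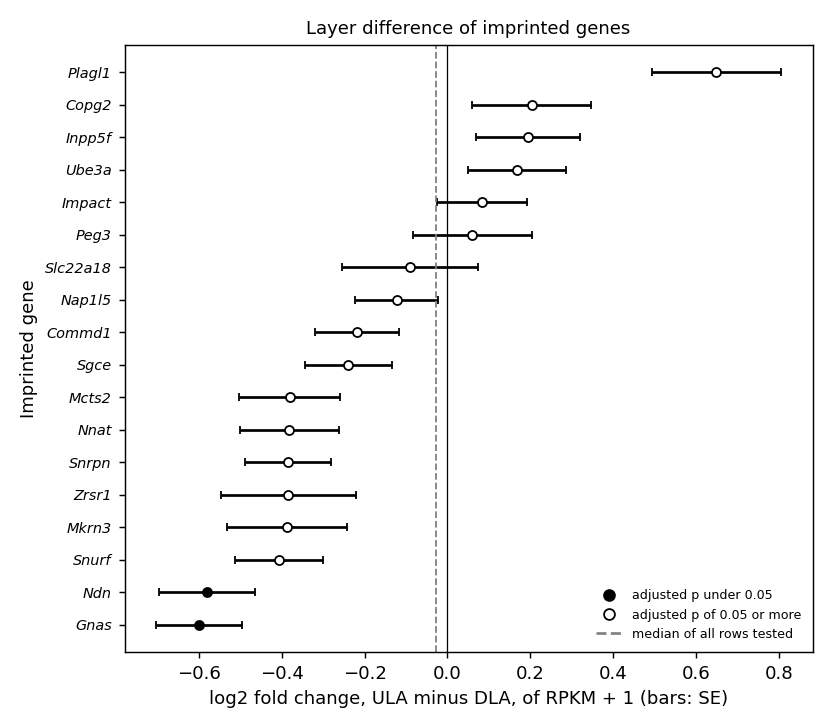
Log2 fold change of RPKM + 1, ULA minus DLA, of the 18 imprinted genes tested by limma, with its standard error; filled points have an adjusted p under 0.05, and the dashed line is the median of all rows tested. Gnas (−0.60) and Ndn (−0.58) stand lowest and Plagl1 (0.65) highest.

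At the Prader-Willi and Angelman region on chromosome 7, the members were Ndn, Magel2, Mkrn3, Snrpn and Snurf, which are expressed from the paternal copy, and Ube3a, whose paternal copy is silenced in neurons. Ndn (chr7:69493163-69494813 on mm9, plus strand, 1 exon) encodes necdin, a MAGE-family protein linked to growth arrest and survival of neurons. Its RPKM was 10.9, 12.8 and 16.9 in the ULAs of brains 1, 2 and 3 and 17.4, 21.8 and 22.5 in the DLAs. Every DLA library was higher than every ULA library, and the ratio of DLA to ULA was 1.59, 1.70 and 1.33 in the 3 brains. The mean rose from 13.5 ± 3.02 (SD, n = 3) in ULAs to 20.6 ± 2.73 (SD, n = 3) in DLAs, with 442 to 742 reads behind each ULA value and 707 to 1096 behind each DLA value. By limma the log2 fold change was −0.58 (SE 0.12, adjusted p = 0.0398). Ndn kept this direction in all 12 alternative settings but passed in 3 of them, with an adjusted p of 0.182 without brain 1 and 0.0850 without brain 2 (range over the alternatives 0.00203 to 0.339).

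Mkrn3 (chr7:69562479-69565025 on mm9, minus strand, 1 exon), a member of the same cluster and a makorin ubiquitin ligase whose loss causes early puberty in humans, was lower per length, with a mean RPKM over the 6 libraries of 3.21 against 17.05 for Ndn. Its RPKM was 2.53, 2.81 and 2.59 in ULAs and 4.16, 4.03 and 3.16 in DLAs. Its layers did not overlap either, and the means were 2.64 ± 0.147 in ULAs and 3.78 ± 0.544 in DLAs (SD, n = 3). It did not pass the test (log2 fold change −0.39, SE 0.14, limma adjusted p = 0.224). Magel2, a MAGE-family gene that lies between Ndn and Mkrn3 in the cluster, was listed at 0 in all 6 libraries.

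The start-site windows of Ndn and Mkrn3 are printed because these neighbours, both single-exon genes, were the members of the cluster whose DLA values stood clear of the ULA values without reads shared with another row. Each window runs from 250 bases before to 50 bases after the start in RefSeq (build GRCm38.p6, on which these coordinates are given), 5′ to 3′ on the gene's own strand, and capitals mark CG dinucleotides, where DNA methylation can sit. The Ndn window is chr7:62348027-62348326 on the plus strand and holds 11 CG. The Mkrn3 window is chr7:62420104-62420403 on the minus strand and holds 15 CG.
Ndn: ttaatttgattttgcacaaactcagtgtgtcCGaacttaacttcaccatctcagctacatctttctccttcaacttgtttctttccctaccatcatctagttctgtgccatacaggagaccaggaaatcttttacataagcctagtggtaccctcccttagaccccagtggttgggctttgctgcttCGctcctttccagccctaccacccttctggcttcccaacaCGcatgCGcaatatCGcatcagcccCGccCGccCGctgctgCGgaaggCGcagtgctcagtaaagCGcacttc
Mkrn3: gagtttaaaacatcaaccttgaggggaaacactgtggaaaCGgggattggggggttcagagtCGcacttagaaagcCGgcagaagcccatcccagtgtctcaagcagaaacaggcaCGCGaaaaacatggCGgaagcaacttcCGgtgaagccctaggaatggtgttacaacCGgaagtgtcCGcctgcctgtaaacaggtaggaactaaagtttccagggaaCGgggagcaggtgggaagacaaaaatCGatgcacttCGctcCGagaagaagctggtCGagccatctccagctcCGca

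Snrpn encodes the splicing protein SmN, and Snurf is the upstream reading frame of the same transcript. Their rows shared 1970 bases of exon, and the reads of the Snurf row amounted to 70.7% to 86.4% of those of the Snrpn row, so both are read here as 1 signal. The RPKM of Snrpn was 16.5, 26.1 and 22.5 in ULAs and 21.7, 33.6 and 30.4 in DLAs. The groups overlapped because brain 1 was low in both layers, while within each brain the DLA library was higher, by 1.32, 1.29 and 1.36 times. The RPKM of Snurf was 16.1, 22.3 and 22.1 in ULAs and 22.7, 29.7 and 28.4 in DLAs, with no overlap. Neither row passed (log2 fold change −0.38, SE 0.10, limma adjusted p = 0.108 for Snrpn; −0.41, SE 0.11 and 0.0983 for Snurf), though Snurf passed at an adjusted p of 0.0433 without brain 3.

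Ube3a, the E3 ubiquitin ligase lost in Angelman syndrome, lay on the other side of 0. Its RPKM was 17.1, 16.7 and 16.5 in ULAs and 16.1, 12.7 and 15.8 in DLAs. All ULA libraries were above all DLA libraries, by a small margin in brains 1 and 3 and a wider one in brain 2. The difference did not pass (log2 fold change 0.17, SE 0.12, limma adjusted p = 0.510). Of its exon bases, 18.4% are covered by an opposite-strand RIKEN cDNA, A230073K19Rik, with a mean RPKM of 2.43, and the libraries do not mark strand. At this region, then, the DLA value exceeded the ULA value in 3 of 3 brains for 4 of 5 tested rows, beside 23.2% of all rows, with Snrpn and Snurf counted as separate rows although they are 1 signal. Ube3a went the other way in 3 of 3.

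**Figure D3:**
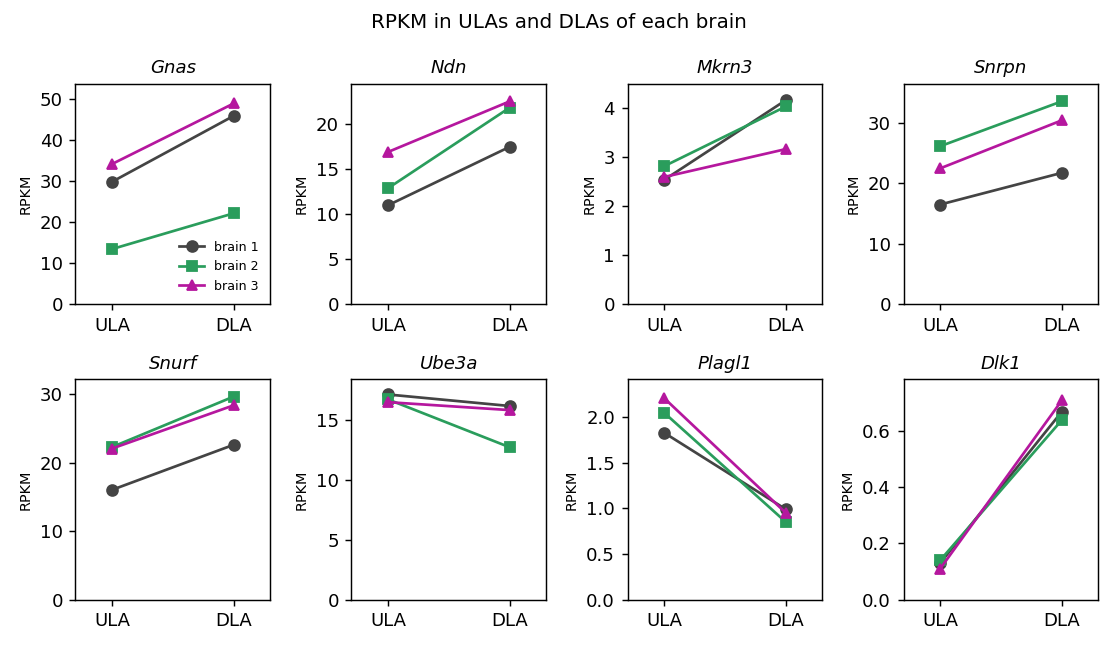
RPKM of 8 imprinted genes in the ULAs and DLAs of each brain, 1 line per brain, on linear axes that start at 0. Gnas, Ndn, Mkrn3, Snrpn, Snurf and Dlk1 go up from ULA to DLA in 3 of 3 brains and Ube3a and Plagl1 go down; for Gnas the range over brains within a layer exceeds the difference between the layer means.

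Gnas (chr2:174109821-174172243 on mm9, plus strand, 17 exons in the row) encodes the stimulatory G protein alpha subunit, which couples receptors to cAMP production, and the locus also makes the XLas and Nesp proteins from other first exons. Its RPKM was 29.8, 13.4 and 34.1 in ULAs and 45.9, 22.1 and 48.9 in DLAs. Brain 2 was low in both layers, so the groups overlapped, but the DLA library was 1.54, 1.65 and 1.43 times the ULA library of its brain. The means were 25.8 ± 10.9 in ULAs and 39.0 ± 14.7 in DLAs (SD, n = 3), with 2059 to 8687 reads per library. With brain as a term, the log2 fold change was −0.60 (SE 0.10, limma adjusted p = 0.0198). Without the brain term the adjusted p was 0.607, and without brain 1 it was 0.101; Gnas passed in 7 of 12 alternatives.

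A second row, the Ensembl record ENSMUSG00000090625 on the opposite strand (chr2:174155820-174172213 on mm9, 13 exons), had 1469 of its 1484 bases in Gnas exons. Its reads, scaled to depth, amounted to 95.0% to 98.2% of those of the Gnas row although it covers 24.5% of the exon bases of Gnas. Its RPKM was 118.1, 51.4 and 135.0 in ULAs and 182.5, 86.5 and 193.9 in DLAs, and its log2 fold change was −0.63 (limma adjusted p = 0.0113). Without strand, the reads of the 2 rows cannot be told apart, and they count here as 1 signal from the shared downstream exons. Over the length of the shorter record this signal averaged 101.5 RPKM in ULAs and 154.3 in DLAs, above the row value of Sgce. Because the row joins transcripts with different first exons, it does not tell the alpha subunit from the other products of the locus. Nespas, the non-coding antisense RNA of the locus, ranged in RPKM from 0.51 to 0.77 in ULAs and from 0.67 to 1 in DLAs and was under the level tested.

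Plagl1 (chr10:12810594-12851501 on mm9, plus strand, 6 exons), a zinc-finger transcription factor known as a growth inhibitor and as a regulator of other imprinted genes, had the largest log2 fold change of the tested members towards ULAs. Its RPKM was 1.83, 2.05 and 2.21 in ULAs and 0.99, 0.85 and 0.95 in DLAs. The lowest ULA value was above the highest DLA value, and the mean was 2.18 times as high in ULAs (2.03 ± 0.191 against 0.930 ± 0.0721, SD, n = 3). These values rest on 235 to 310 reads per ULA library and 88 to 148 per DLA library. The difference did not pass (log2 fold change 0.65, SE 0.16, limma adjusted p = 0.0818), nor did it in any of the 11 alternatives that gave it a value (0.0530 to 0.413). On log2(RPKM + 0.1), which shrinks low values less, the log2 fold change was 1.05.

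The start-site window of Plagl1 is shown because this gene went furthest against the direction of the set, and because its window is rich in CG. It holds 26 CG (in capitals), more than 83.1% of the 32851 start-site windows in RefSeq, and 1 copy of the hexamer TGCCGC on either strand, the methylated motif bound by ZFP57, a keeper of imprints. The window is chr10:13090582-13090881 on GRCm38.p6, plus strand.
Plagl1: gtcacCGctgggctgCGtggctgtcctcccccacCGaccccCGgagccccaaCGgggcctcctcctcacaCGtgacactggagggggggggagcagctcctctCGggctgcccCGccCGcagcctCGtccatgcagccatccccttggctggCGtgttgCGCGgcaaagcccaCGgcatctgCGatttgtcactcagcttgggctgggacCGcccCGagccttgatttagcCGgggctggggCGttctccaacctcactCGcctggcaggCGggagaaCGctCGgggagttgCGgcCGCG
RefSeq held 47 such windows for 31 of the 38 members. TGCCGC or its reverse complement GCGGCA stood in 15 of the 47 (31.9%) and in 11.6% of all windows, and the YY1 motif AAGATGGC, also searched on both strands, stood in 1 (2.13%) and in 2.75% of all. Member windows held a median of 15 CG, beside 7 in all windows (quartiles 3 and 20). These windows are not all distinct, since Snrpn and Snurf have the same window and a pair of Mest windows nearly coincide, all with the hexamer. The hexamer TGCCGC itself holds a CG, AAGATGGC does not, and neither count was tested.

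On chromosome 11, Zrsr1, a splicing factor gene, lies within Commd1, a gene for a protein of copper handling and endosomal sorting. Commd1 had an RPKM of 33.7, 36.3 and 39.0 in ULAs and 42.3, 40.2 and 44.6 in DLAs. Zrsr1 was far lower, at 1.17, 0.91 and 1.07 in ULAs and 1.82, 1.89 and 1.34 in DLAs. In both genes all DLA libraries were above all ULA libraries, and neither passed (log2 fold change −0.22, SE 0.10, limma adjusted p = 0.322 for Commd1; −0.38, SE 0.16 and 0.281 for Zrsr1). Zrsr1 has a related copy, Zrsr2 on the X chromosome, which averaged 1.60 RPKM in DLAs and went the other way (log2 fold change 0.21), so reads could be split between the copies.

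On chromosome 2, Nnat encodes neuronatin, a small membrane protein of the endoplasmic reticulum linked to calcium handling. Its RPKM was 9.66, 7.05 and 6.80 in ULAs and 13.2, 8.95 and 9.44 in DLAs. Within each brain the DLA value was higher, by 1.37, 1.27 and 1.39 times, and the groups overlapped because brain 1 was high in both layers (log2 fold change −0.38, SE 0.12, limma adjusted p = 0.158). Mcts2, a retrotransposed translation factor gene inside H13, had an RPKM of 12.8, 12.4 and 17.8 in ULAs and 15.1, 19.8 and 21.8 in DLAs. It too was higher in DLAs within each brain (log2 fold change −0.38, SE 0.12, limma adjusted p = 0.168). Its parent gene Mcts1 averaged 47.1 RPKM in ULAs against 49.9 in DLAs (log2 fold change −0.08), and reads of the copies cannot be fully separated.

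On chromosome 6, neighbouring members differed widely in level. Sgce had an RPKM of 39.0, 41.0 and 42.7 in ULAs and 41.0, 50.6 and 54.7 in DLAs (log2 fold change −0.24, SE 0.10, limma adjusted p = 0.297). Peg10, a retrotransposon-derived gene that starts beside Sgce and is expressed from the same paternal copy, had an RPKM of 0.05 or less in every library. Asb4, a maternally expressed ubiquitin ligase adaptor further along, ranged from 0.04 to 0.15. Thus an abundant and a near-silent gene lay head to head in the same cluster.

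Nap1l5, a single-exon nucleosome assembly gene inside Herc3, had an RPKM of 28.8, 36.3 and 38.8 in ULAs and 33.0, 39.3 and 40.7 in DLAs. The DLA library was higher in each brain, by 1.15, 1.08 and 1.05 times, and the difference did not pass (log2 fold change −0.12, SE 0.10, limma adjusted p = 0.585). Copg2, a coat protein gene of Golgi transport, had an RPKM of 15.0, 14.4 and 13.9 in ULAs and 12.5, 9.69 and 15.7 in DLAs, higher in ULAs in brains 1 and 2 and lower in brain 3 (log2 fold change 0.20, SE 0.14, limma adjusted p = 0.513). Mest, the hydrolase gene that ends against Copg2, reached an RPKM of 1.33 in the ULAs of brain 1 and lay between 0.36 and 0.67 in the other libraries. Mest was under the level tested; the DLA value was 0.45, 0.54 and 0.85 times the ULA value in the 3 brains.

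The 5 single-exon members that were tested shared a direction: Ndn, Mkrn3, Nap1l5, Mcts2 and Zrsr1 were all higher in DLAs in 3 of 3 brains, beside 22.6% of the 1325 single-exon rows tested. Of the 13 tested members with several exons, 6 were, beside 23.2% of such rows. This split was made after the values had been seen and was not tested. By parental origin, 9 of 13 tested paternally expressed members and 1 of 4 maternally expressed ones had a higher DLA value in each brain. The median log2 fold change was −0.38 for the 13 and 0.04 for the 4. Among all rows tested the share was 23.2% and the median −0.03. The 9 include Snrpn and Snurf, which are 1 signal, and all 5 single-exon members, so this split overlaps the one by exons. It was not tested either.

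Impact, a regulator of the translation kinase Gcn2, had overlapping layers. Its RPKM was 29.6, 32.4 and 31.2 in ULAs and 29.0, 27.0 and 31.8 in DLAs (log2 fold change 0.08, SE 0.11, limma adjusted p = 0.742). Inpp5f, a phosphoinositide phosphatase gene, ranged from 8.39 to 9.14 in ULAs and from 6.84 to 8.29 in DLAs; these ranges did not overlap, and the difference did not pass (0.19, SE 0.13, limma adjusted p = 0.476). Peg3, a zinc-finger gene tied to maternal behaviour and growth, ranged from 2.01 to 3.46 and from 2.10 to 2.92, and Slc22a18, a transporter gene, from 2.23 to 3.04 and from 2.31 to 3.11. Neither Peg3 nor Slc22a18 had a stable direction, and their log2 fold changes were 0.06 (SE 0.14) and −0.09 (SE 0.16).

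Among the 15 members with a mean RPKM between 0 and 1, Dlk1 stood apart. Dlk1 (chr12:110691665-110701546 on mm9, plus strand, 5 exons) encodes a Notch-related transmembrane ligand, expressed from the paternal copy, that is known from progenitor cells. Its RPKM was 0.13, 0.14 and 0.11 in ULAs and 0.67, 0.64 and 0.71 in DLAs. The layers were far apart and the libraries within a layer close together, at 0.127 ± 0.0153 in ULAs and 0.673 ± 0.0351 in DLAs (SD, n = 3). The mean was 5.32 times as high in DLAs, and the within-brain ratios were 5.15, 4.57 and 6.45. This rests on few reads, 13 to 16 per ULA library and 55 to 91 per DLA library.

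Dlk1 was under the level tested, and its values were seen before it was singled out. In a limma fit added for low rows (those that averaged 0.1 RPKM or more, on log2(RPKM + 0.1)), its log2 fold change was −1.77 (SE 0.35, unadjusted p = 0.00149), and it did not pass over the 19945 rows of that fit (adjusted p = 0.124, with 0.426% of rows called). With no filter on low rows and a pseudocount of 1, the adjusted p was 0.3001. Its window at the start site is printed because its layers stood so far apart. It is chr12:109452573-109452872 on GRCm38.p6, plus strand, with 9 CG in capitals.
Dlk1: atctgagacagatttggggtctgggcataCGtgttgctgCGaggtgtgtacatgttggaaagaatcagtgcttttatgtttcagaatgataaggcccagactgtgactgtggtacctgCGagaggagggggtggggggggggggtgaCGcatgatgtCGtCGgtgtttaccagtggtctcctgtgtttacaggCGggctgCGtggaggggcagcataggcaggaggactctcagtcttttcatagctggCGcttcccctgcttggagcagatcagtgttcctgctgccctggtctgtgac

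Dlk1 shares its cluster with the maternally expressed non-coding RNAs Meg3, Rian and Mirg and the retrotransposon-derived Rtl1. Meg3 had an RPKM of 0.19 to 0.42 in ULAs and 0.12 to 0.44 in DLAs, with overlapping layers, and Rian stayed at 0.10 or less. Mirg and Rtl1 were listed at 0 in all libraries. In the growth axis, Igf2, the paternally expressed growth factor, was at 0.04 or less in every library and H19 was listed at 0. Igf2r, the maternally expressed receptor that clears Igf2, ranged from 0.61 to 1.32 in ULAs and from 0.56 to 0.79 in DLAs.

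**Figure D4:**
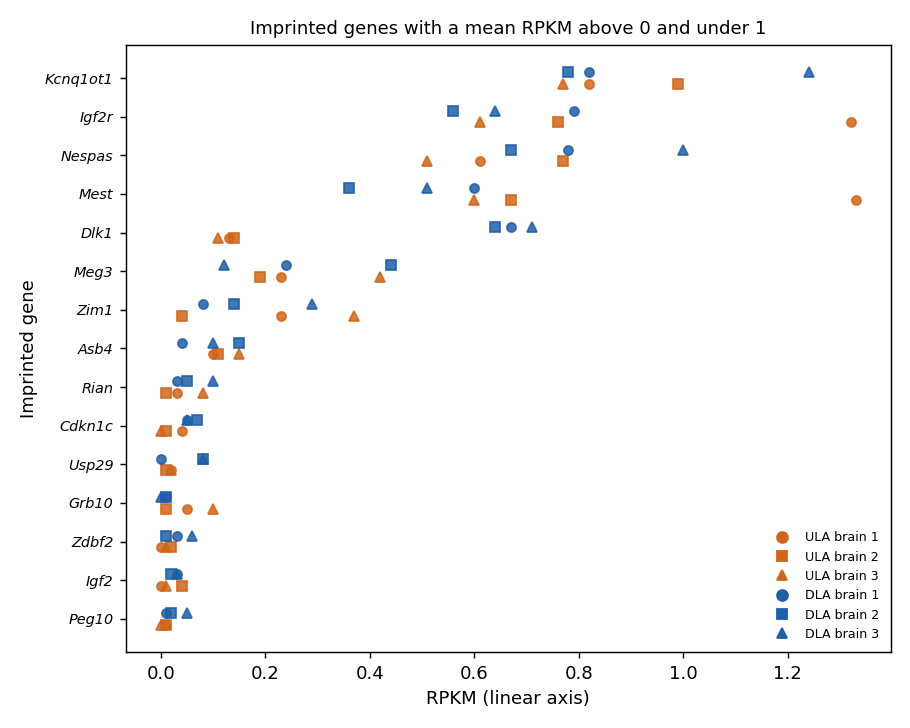
RPKM on a linear axis of the 15 imprinted genes with a mean above 0 and under 1, by library, with ULAs in orange, DLAs in blue and the marker shape giving the brain. The DLA values of Dlk1 (0.64 to 0.71) stand clear of its ULA values (0.11 to 0.14), while the layers of Kcnq1ot1, Igf2r, Nespas and Meg3 overlap.

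The other low members showed no gap of that size in RPKM. Kcnq1ot1, the antisense non-coding RNA that silences the Kcnq1 cluster, ranged from 0.77 to 0.99 in ULAs and from 0.78 to 1.24 in DLAs, with 1279 to 3058 reads per library over an annotated length of 83437 bases. It lies inside Kcnq1 on the opposite strand, which averaged 24.0 RPKM in ULAs and 26.6 in DLAs, and without strand unspliced reads of Kcnq1 cannot be told from it. Of the genes it controls, Cdkn1c, a cell cycle inhibitor, was at 0.07 or less and Phlda2 was listed at 0. Zim1 ranged from 0.04 to 0.37 over the 6 libraries. Usp29, a deubiquitinase gene, Grb10, an adaptor of insulin signalling, and Zdbf2, a zinc-finger gene, stayed at 0.10 or less. For the 5 genes listed at 0, an RPKM under 0.01 would also be printed as 0.

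Related gene lists held no called gene. Of 45 other imprinted genes, 43 had a row and 18 were tested; limma called 0 of them, 4 had an unadjusted p under 0.05, and the median log2 fold change was −0.00. The highest of them were Cd81, a tetraspanin, which averaged 1474 RPKM in ULAs against 1494 in DLAs, Pon2, a lactonase, with 306 and 248, and Dhcr7, the last enzyme of cholesterol synthesis, with 214 and 262. Thus the lean towards DLAs among the 18 members had no counterpart in the median of this second list. Of 35 genes that keep or read imprints (DNA methyltransferases, methyl-CpG binding proteins and their partners), 29 were tested, 0 were called, 4 had an unadjusted p under 0.05 and the median was 0.01. The highest were Mbd3, Hdac2 and Rbbp4, subunits of the NuRD complex, which averaged 33.6, 24.95 and 23.8 RPKM in ULAs against 40.0, 27.9 and 23.9 in DLAs.

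The insulin-like growth factor axis, in which Igf2, Igf2r and Grb10 act, was represented by 15 further genes, of which 8 were tested and 0 called by limma (2 with an unadjusted p under 0.05, median 0.01). Igfbp2, a secreted binding protein, was abundant in astrocytes of both layers, at 1164 ± 400.4 RPKM in ULAs against 851 ± 141 in DLAs (SD, n = 3). Igfbp4, another binding protein, had 7.96 ± 0.857 and 4.76 ± 0.364 (log2 fold change 0.64, limma adjusted p = 0.0554), and the receptor gene Insr 6.15 ± 1.304 and 5.71 ± 0.371.

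Markers of other cells moved between the layers too. Oligodendrocyte markers had a summed RPKM of 89.9 to 189.8 in ULAs and 184.8 to 300.5 in DLAs, and 8 of 10 tested, Mbp, Mog and Opalin among them, rose in DLAs, with a median log2 fold change of −0.98 over the 10. Markers of oligodendrocyte precursors summed to 85.4 to 96.9 in ULAs and 97.3 to 134.1 in DLAs, most of it from Olig1 (80.0 to 90.8 and 87.2 to 125.5). Olig2 ranged from 4.91 to 5.33 in ULAs and from 5.86 to 19.06 in DLAs. It was higher in DLAs in 3 of 3 brains but did not pass (log2 fold change −0.86, limma adjusted p = 0.106). Sox10 averaged 0.117 in ULAs and 0.357 in DLAs. The defining markers Pdgfra and Gpr17 were at 0.07 or less, and Cspg4 averaged 0.583 and 0.340. Neuronal markers summed to 14.7 to 16.1 in ULAs and 10.6 to 13.8 in DLAs, and the 4 tested all had log2 fold changes above 0 (median 0.29). Among those under the level tested, Slc17a7 (0.30 to 0.49 in ULAs, 0.57 to 0.61 in DLAs) and Gad1 were higher in DLAs within each brain. Whether neurons contributed to the levels of Ndn, Snrpn and Gnas was not tested. For microglia, endothelial cells, mural cells and meningeal fibroblasts the ranges of the layers overlapped, with Rgs5, a mural gene, called higher in ULAs (log2 fold change 0.77, limma adjusted p = 0.0455) and the fibroblast markers Col3a1 and Slc6a13 at 0. Gfap, the intermediate filament of astrocytes, was called higher in DLAs (log2 fold change −0.93, limma adjusted p = 0.00556). The summed level of the 38 imprinted genes was 283.3 to 324.5 in ULAs and 335.2 to 388.0 in DLAs. This lack of overlap depends on Gnas, which gave 34.1 of the highest ULA sum and 45.9 of the lowest DLA sum. The sum also counts Snrpn and Snurf as separate rows although they are 1 signal. The part of the other-cell markers in the result was not tested.

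**Figure D5:**
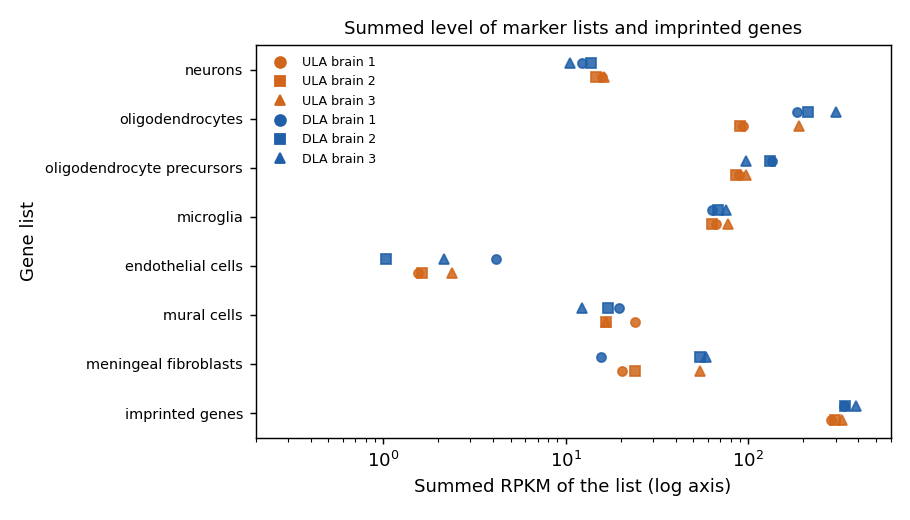
Summed RPKM of marker lists of other cell types and of the 38 imprinted genes, by library, on a log axis; ULAs in orange, DLAs in blue, marker shape for the brain. Oligodendrocyte markers run from 89.9 to 189.8 in ULAs and 184.8 to 300.5 in DLAs, and the neuronal sum is lower in DLAs. The sum of the imprinted genes is higher in DLAs with no overlap, which depends on the Gnas row.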

How the data were processed

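RNA was measured in 6 libraries of sorted astrocytes, 3 ULA and 3 DLA. Per the labels, RNA was amplified with SMART-Seq v4 and tagged with Nextera XT, which do not mark strand. The submitters' processing notes name bcl2fastq 1.8.4, CASAVA 1.8.2 and build mm9; the aligner and counting program are not given in the sources used here. The authors deposited 1 table of RPKM values with mRNA lengths, truncated to 2 decimals, in which a row can join several transcripts.

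Depth was estimated from the smallest spacing between values of short rows (500 bases or less): at the depth chosen 100% of values were whole multiples of 1 read, against at most 83.5% at the next best depth. Read numbers give precision only. The 13999 rows that averaged an RPKM of 1 or more were compared with limma 3.58.1 in R 4.3.3 (lmFit, eBayes with trend) on log2(RPKM + 1), so fold changes of low genes are understated; the model had brain and layer as terms. The code was tested on simulated data. Exact permutation of 3 against 3 libraries has a smallest p of 0.1 (0.25 within pairs), so limma was the only test of genes.

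Libraries that share a replicate number showed correlated deviations around the layer means (r over rows of 0.42, 0.33 and 0.34, against −0.20 to −0.16 for different numbers), and the number was taken as the brain, under which the study's gene lists give the same values. Members and lists were chosen with earlier results of these data known, parental origins and gene lists came from general knowledge, and no list was tested as a set. All members are named; values per library are given for those that pass, those with an absolute log2 fold change of at least 0.3 and no overlap between layers, and the 12 highest, and of each list those that pass or are highest, except for some oligodendrocyte markers, which are not reported here by name. Alternatives were no brain term, a pseudocount of 0.1, no filter, a mean of at least 5, median centring, quantile normalization, a correction for mRNA length, eBayes without trend and leaving out each brain; a fit of rows with a mean of at least 0.1 was added after the data were seen. Start-site windows came from RefSeq on GRCm38.p6 and were matched by symbol. Figures were drawn with matplotlib 3.10.9 in Python 3.11.15.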

Additional observations from a re-analysis of the deposited data

How the results depend on the processing

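Over the 18 tested members, 193 of the values under alternatives kept direction and side of the threshold, 14 lost a call, 1 gained one and 3 changed sign. The signs that changed were those of Peg3 (0.06, but −0.083 with the length correction and −0.0085 to 0.11 when 1 brain was left out) and Slc22a18 (−0.09, but −0.28 to 0.015 when 1 brain was left out, positive without brain 3). The number of members called higher in DLAs was 2; it was 0 without the replicate block (the brain term), with no filter, without the eBayes trend and in the added fit of low rows, and 1 with median centring, quantile normalization or the length correction. Leaving out 1 brain at a time gave 0 to 3 such members, with 0 without brain 1. No alternative called a member higher in ULAs. Over all rows, 100 were called higher in ULAs and 128 in DLAs. These counts were 23 and 18 without the replicate block, 0 and 0 with no filter, 63 and 80 with the length correction, 65 and 79 without the trend and 43 and 42 in the added fit, and ranged from 104 to 426 and from 126 to 687 when 1 brain was left out, highest without brain 3. The share of calls higher in ULAs was 43.9%, 56.1% without the replicate block and 57.3% with quantile normalization. The median log2 fold change of the 18 members was −0.23, −0.13 with quantile normalization and −0.17 with the length correction, and ranged from −0.25 to −0.21 when 1 brain was left out. Without 1 brain, 0 to 1 other imprinted genes were called higher in DLAs and 0 to 1 imprint-keeping genes were called. The causes of these changes were not tested, except that leaving out a brain leaves fewer libraries and that the fits with no filter or a lower one adjust over more rows. Depth limits the low members: 10 reads or fewer lay behind many values of Peg10, Igf2, Cdkn1c, Grb10 and Asb4. None of these genes passed in the fit with no filter (limma adjusted p of 0.593 to 0.877). The smallest difference that could be detected at this depth was not estimated.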

Other observations

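Rows near the 3 members with the largest differences in the test were looked up after those values were seen. Members themselves were left out of these counts, so Mkrn3 is not among the neighbours of Ndn. Within 1 Mb of Ndn, 5 such rows were tested, 0 were called by limma and 0 were higher in DLAs in 3 of 3 brains, against 23.2% of all rows, with a median log2 fold change of 0.03. Within 1 Mb of Gnas, 13 other rows were tested, of which 4 were higher in DLAs in 3 of 3 brains and 1 was called, the opposite-strand record that shares its reads. Their median was −0.12, and 11 of the 13 lay below 0. That record is also among the 4 and the 11, so these counts include the Gnas signal itself. Within 1 Mb of Plagl1, 11 other rows were tested, 0 were called, 0 were higher in ULAs and 2 higher in DLAs in 3 of 3 brains, and the median was −0.09.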
